A study of Mus musculus with 4 samples.

Results

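Regulators of G-protein signalling (RGS proteins) were followed as transcripts in RNA captured with a miR-206 mimic and in RNA captured with a control mimic. The 10 genes are Rgs2, Rgs3, Rgs4, Rgs5, Rgs10, Rgs12, Rgs14, Rgs16, Rgs17 and Rgs19, found as the rows of the deposited gene table that carry these symbols, 10 of 28649 rows in all. They were chosen by name from the family with the counts and TPM values of these same libraries already known, so their miR-206 against control values are a description and support nothing further. Of the 10, 9 had enough counts for the fit across all genes and 1, Rgs14, had none. The table also holds 14 other rows whose symbol starts with Rgs, which were not picked.

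The cells were fibro-adipogenic progenitors (FAPs), mesenchymal stromal cells of skeletal muscle, sorted for Sca1 from wild-type C57Bl/6 mice. They were cultured to about 80% confluency in a growth medium with serum and FGF, exposed to a biotin-tagged mimic for 24 hours and kept for 48 hours in basal medium with 10% horse serum. One group of 2 libraries received the miR-206 mimic and the other group of 2 libraries the control mimic; strain, sort and media were common to both. No unselected RNA of the same cells was analysed here, so a level in a pulldown joins how much of the transcript the cells held with how well it was captured. Whether replicates were separate mice, sorts or cultures is not stated in the labels, so the p-values reflect the spread of these libraries alone, which may be technical.

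RGS proteins bind the active, GTP-loaded alpha subunit of a heterotrimeric G protein and speed up its GTP hydrolysis, which shortens the signal of a G-protein-coupled receptor. They share an RGS domain and are sorted into subfamilies by what surrounds it. Of the 10 genes, Rgs2, Rgs3, Rgs4, Rgs5 and Rgs16 belong to the R4 subfamily, Rgs17 and Rgs19 to the RZ subfamily, and Rgs10, Rgs12 and Rgs14 to the R12 subfamily. A microRNA guides an Argonaute protein to transcripts that pair with its seed, the bases 2 to 8 of the mature strand, and a pulldown with a tagged mimic recovers transcripts that the mimic holds directly or through such a complex.

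The mature 3p strand of miR-206 is shown because its seed is the part through which a miR-206 mimic is known to pair with transcripts. The labels do not give the mimic's own sequence. The 3p strand lies on the plus strand of chromosome 1 of the GRCm38.p6 assembly, from 20679055 to 20679076, and is printed from RefSeq. Below it stand miR-6349 and miR-6382, which have the same bases 2 to 8, in capitals, among the mature mouse microRNAs of the RefSeq table used here. That table is not complete: miR-1, the well-known relative of miR-206 with this seed, is not printed.
mmu-miR-206-3p: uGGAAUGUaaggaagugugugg
mmu-miR-6349: uGGAAUGUgggaggggcaugcg
mmu-miR-6382: uGGAAUGUaaagagagcacacaag
The DNA letters that pair with this seed are ACATTCC. Whether the RGS transcripts carry them was not tested, since no transcript sequences were used here. The labels name no sequence for the control mimic either.

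Depth and cell identity bear on all values below. The libraries held 14566568 and 15426666 estimated counts (miR-206) and 8883197 and 14261566 (control). Normalised CPM are counts divided by the TMM-scaled size of their library. The TMM factors were 0.624 and 0.737 (miR-206) and 1.62 and 1.34 (control), so they differed by group and the folds in CPM depend on them. With these factors 3 counts correspond to 0.330 and 0.264 normalised CPM (miR-206) and to 0.209 and 0.157 (control). Pearson's r of log2 CPM over the 15240 tested genes, which are not independent replicates, was 0.954 within the miR-206 group, 0.923 within the control group and 0.806 to 0.849 across the groups. The FAP markers Pdgfra and Ly6a, which encodes Sca1, were measured in every library, at 589 to 658 and 1360 to 1384 CPM in the miR-206 pulldown against 510 to 712 and 682 to 974 CPM in the control pulldown. Markers of blood cells summed to 9.58 and 16.6 CPM (miR-206) and 17.2 and 12.4 CPM (control) over 8 genes. Endothelial markers summed to 128 and 113 CPM (miR-206) and 137 and 79.9 CPM (control), and 3 of the 8 were called, Erg (log2 fold 4.30) and Cdh5 (2.40) higher and Egfl7 (-1.79) lower. Myogenic markers summed to 82.8 and 52.5 CPM (miR-206) and 31.9 and 32.9 CPM (control), with Myod1 (3.10) and Myog (0.98) called higher. Cdh15 (0.97), Itga7 (-0.30) and Myf5 (-2.83) were not called. Some of these counts were low, with 59 and 11 for Myod1 in the control libraries. Myf5 had 4 and 0 counts (miR-206) against 9 and 46 (control). The 8 FAP markers summed to 10048 and 10324 CPM (miR-206) and 3438 and 4606 CPM (control). Of these, Osr1 (4.76), Cd34 (3.49), Thy1 (2.92) and Dpt (1.66) were called higher, while Pdgfra (0.03), Ly6a (0.73), Dcn (-0.48) and Col1a1 (-0.72) were not called. Over all tested genes 15.3% were called higher and 6.19% lower. The part of any of these marker lists in the RGS levels was not tested.

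With TMM scaling, the miR-206 pulldown held 56.5-fold more Rgs2, 24.8-fold more Rgs5, 6.22-fold more Rgs19, 5.44-fold more Rgs17 and 1.89-fold more Rgs3 than the control pulldown. With total counts or log2(TPM + 1) all 5 folds were smaller, and the log2 fold of Rgs3 turned negative (-0.16 and -0.05). These 5 of the 9 tested genes were past an adjusted p of 0.05 in the edgeR quasi-likelihood fit, and 0 were past it in the lower direction. Of all 15240 genes 15.3% were called higher and 6.19% lower by the same rule. The median log2 fold (miR-206 over control) was 1.32 over the 9 RGS genes and -0.11 over all genes. Both miR-206 libraries lay above both control libraries for 7 of the 9 genes, which 29.7% of all genes did, and below them for 0, against 32.3% of all genes. Since the genes were picked with these folds known, nothing is read from these shares.

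**Figure D1:**
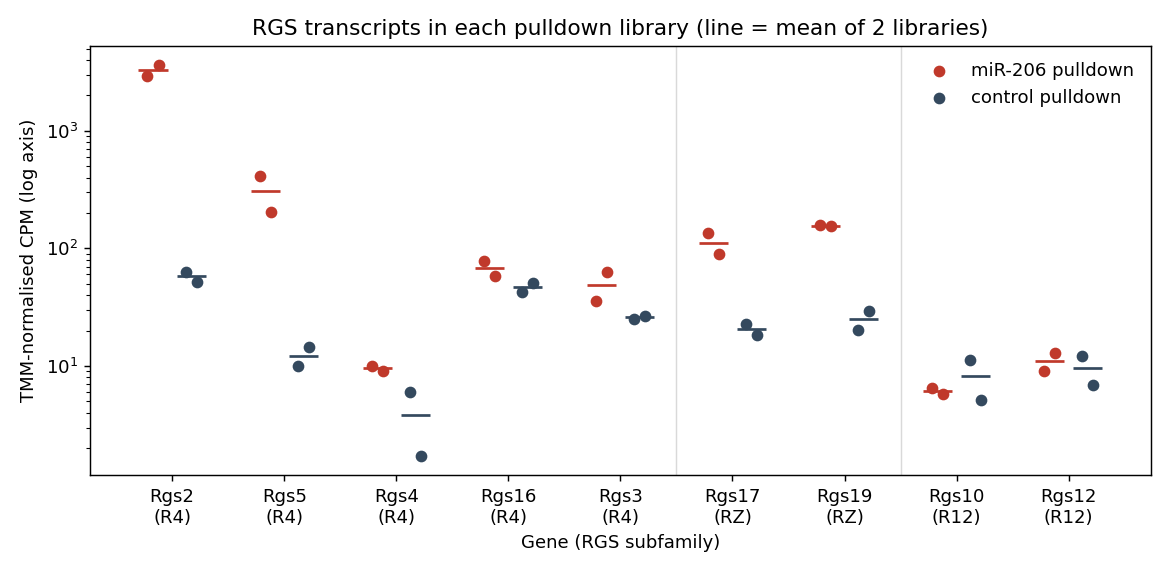
TMM-normalised CPM (log axis) of the 9 RGS genes with counts, grouped by subfamily, with a point for each library and a line at the mean of 2 libraries; levels are to be compared within a gene, since CPM are not divided by length. Rgs2 stands at 2936 and 3591 in the miR-206 pulldown against 63.5 and 52.0 in the control pulldown, while Rgs10 and Rgs12 overlap between the groups.

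Rgs2 had the largest log2 fold of the 10 and the highest level per length in both pulldowns. RGS2 is a small R4 protein known for its preference for the Gq class of alpha subunits, and its gene lies on chromosome 1 from 143999338 to 144004149 (GRCm38.p6). It had 2936 and 3591 normalised CPM in the miR-206 pulldown, against 63.5 and 52.0 CPM in the control libraries. The groups lay far apart and each pair of libraries was close, with means of 3263 ± 463 and 57.8 ± 8.14 CPM (SD, n = 2 each). The log2 fold was 5.82 ± 0.46 (SE), with a 95% interval from 4.84 to 6.80, and 69 of the 15240 tested genes had a larger one. Rgs2 took 0.183% and 0.264% of all estimated counts in the miR-206 pulldown, against 0.0103% and 0.00696% in the control libraries. By TPM it ranked 92nd and 56th among all gene rows there, against 2128th and 2289th in the control pulldown.

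Rgs5, also of the R4 subfamily, had the next largest log2 fold of the 10. It is a widely used marker of pericytes, the mural cells of small vessels, and lies on chromosome 1 from 169655501 to 169695813. Its level was 409 and 202 CPM in the miR-206 pulldown and 10.1 and 14.4 CPM in the control pulldown. The miR-206 libraries differed from each other about as 2 to 1, and both stood far above the control libraries, with means of 305 ± 146 and 12.3 ± 3.06 CPM (SD, n = 2 each). The log2 fold was 4.63 ± 0.42 (SE; 95% interval 3.74 to 5.53), and 4.0 without miR-206 replicate 1, the higher of the pair. Rgs21, an R4 gene that is not among the 10, had 3.74 and 1.58 CPM (miR-206) against 0.626 and 0.472 CPM (control), with a log2 fold of 2.26 ± 0.99 that was not called (adjusted p = 0.121).

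Other pericyte and smooth muscle markers did not share one direction. Of 12 tested, without Rgs5, 2 were called higher and 1 lower in the edgeR fit, close to the 15.3% and 6.19% of all genes. Their median log2 fold was 0.28, beside -0.11 for all genes. Abcc9, a potassium channel subunit, had a log2 fold of 4.92 ± 0.51 (adjusted p = 1.4e-05) and the receptor Notch3 1.92 ± 0.32 (adjusted p = 2.3e-04). Ndufa4l2 fell by 1.55 on the log2 scale (adjusted p = 0.00248). The 13 listed markers summed to 805 and 776 CPM in the miR-206 libraries and to 765 and 684 CPM in the control libraries. These sums hold large parts that went opposite ways. Abcc9 had 367 and 294 CPM (miR-206) against 5.29 and 16.3 CPM (control), and Ndufa4l2 163 and 169 against 543 and 428 CPM. Kcnj8, the pore partner of Abcc9, was near the floor at 1.21 and 1.85 CPM (miR-206) against 1.81 and 0.0525 CPM (control), and Higd1b had 0 and 0.0880 CPM (miR-206) against 0.626 and 0 CPM (control). The part of pericytes in the Rgs5 level was not tested, and in such bulk libraries fewer cells of a type cannot be told apart from less RNA per cell.

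Rgs4 lies next to Rgs5 on chromosome 1, from 169741477 to 169747642, with 45.7 kb between the genes. RGS4 acts on Gi and Gq alpha subunits and is best known from brain and heart. Its transcript was scarce, with 10.0 and 9.15 CPM in the miR-206 pulldown against 5.99 and 1.73 CPM in the control pulldown. In CPM both miR-206 libraries lay above both control libraries, which 29.7% of all genes did, but the control libraries differed more than 3-fold from each other. On the deposited TPM scale the groups overlapped, with 4.83 and 3.32 TPM (miR-206) against 4.49 and 1.58 TPM (control). The log2 fold of 1.32 ± 0.56 was not past the threshold. It was 0.13 with total counts and 0.41 with log2(TPM + 1). Left-out libraries gave 2.46 (without control replicate 1) and 0.68 (without control replicate 2).

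Rgs16 and Rgs3 completed the R4 genes with small differences whose direction depended on the scale. RGS16 acts on Gi and Gq alpha subunits. Rgs16 had 77.9 and 57.9 CPM in the miR-206 pulldown against 42.7 and 51.1 CPM in the control pulldown, a log2 fold of 0.53 ± 0.30 that was not called. On the deposited TPM scale the groups again did not overlap, but in the opposite order, with 24.7 and 19.6 TPM (miR-206) against 27.3 and 31.1 TPM (control). Rgs3, whose product also occurs in long forms with other domains, had 35.6 and 62.4 CPM (miR-206) against 25.2 and 26.6 CPM (control). Its log2 fold of 0.92 ± 0.32 lay just past the threshold and reversed with total counts (-0.16) and with TPM (-0.05). Without miR-206 replicate 2 it was 0.45, without control replicate 1 0.88 and without control replicate 2 0.96, none of them past the threshold.

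The RZ genes Rgs19 and Rgs17 encode regulators of the Gi class, Gz included, with a cysteine string that carries lipid anchors. Rgs19, on chromosome 2 from 181688419 to 181694537, had 157 and 154 CPM in the miR-206 libraries and 20.4 and 29.6 CPM in the control libraries. Those miR-206 values were nearly equal, and the log2 fold was 2.64 ± 0.33 (95% interval 1.95 to 3.32). Rgs17, on chromosome 10 from 5825663 to 5922412, had 135 and 89.3 CPM in the miR-206 pulldown and 22.8 and 18.4 CPM in the control pulldown. Its log2 fold was 2.44 ± 0.32 (1.76 to 3.13) in counts. Rgs20, the remaining RZ gene and not among the 10, showed no such gap, with 8.15 and 5.81 CPM (miR-206) against 7.93 and 6.87 CPM (control) and a log2 fold of -0.09 ± 0.46 (adjusted p = 0.918).

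The R12 genes had at most 175 counts in any library, and none was called in the TMM fit. RGS10 is a small protein that consists of little more than the RGS domain, while RGS12 and RGS14 also carry a GoLoco motif that binds inactive Gi alpha subunits. Rgs10 had 6.49 and 5.81 CPM in the miR-206 pulldown against 11.2 and 5.14 CPM in the control pulldown, and Rgs12 had 9.14 and 13 CPM (miR-206) against 12.2 and 6.87 CPM (control). Both genes overlapped between the groups in CPM, with log2 folds of -0.41 ± 0.49 (95% interval -1.44 to 0.63) and 0.22 ± 0.42 (-0.66 to 1.11). On the deposited TPM scale both lay lower in the miR-206 pulldown without overlap, as 65.7% of all genes did. Rgs10 had 6.36 and 6.45 TPM (miR-206) against 22.7 and 14.5 (control), and Rgs12 2.26 and 3.21 against 6.03 and 5.69. Rgs10 was called lower with total counts (-1.58, edgeR adjusted p = 0.0321) and with log2(TPM + 1) (-1.37, limma adjusted p = 0.0121), beside 45.3% and 38.1% of all genes. The sign of Rgs10 turned without control replicate 1 (0.26), and that of Rgs12 with 7 of 14 alternatives. Rgs14 had 0 counts in every library, which allows up to 0.330 CPM in the miR-206 pulldown and up to 0.209 CPM in the control pulldown.

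The number of RGS genes called depended on how the libraries were scaled. Over all tested genes the median log2 fold was -0.11 with TMM, -0.40 with the upper quartile, -1.22 with total counts and -0.70 with limma on log2(TPM + 1). With the upper quartile 4 RGS genes were called higher and 0 lower, where 12.3% and 12.9% of all genes were. With total counts 4 were called higher (Rgs2, Rgs5, Rgs17 and Rgs19) and 1 lower (Rgs10), beside 7.02% and 45.3% of all genes. On the TPM scale 3 were called higher (Rgs2, Rgs5 and Rgs19) and 1 lower (Rgs10), beside 7.15% and 38.1%. The deposited TPM of both miR-206 libraries lay above both control libraries for 4 of the 9 genes and below them for 3, as 12.0% and 65.7% of all genes did.

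**Figure D2:**
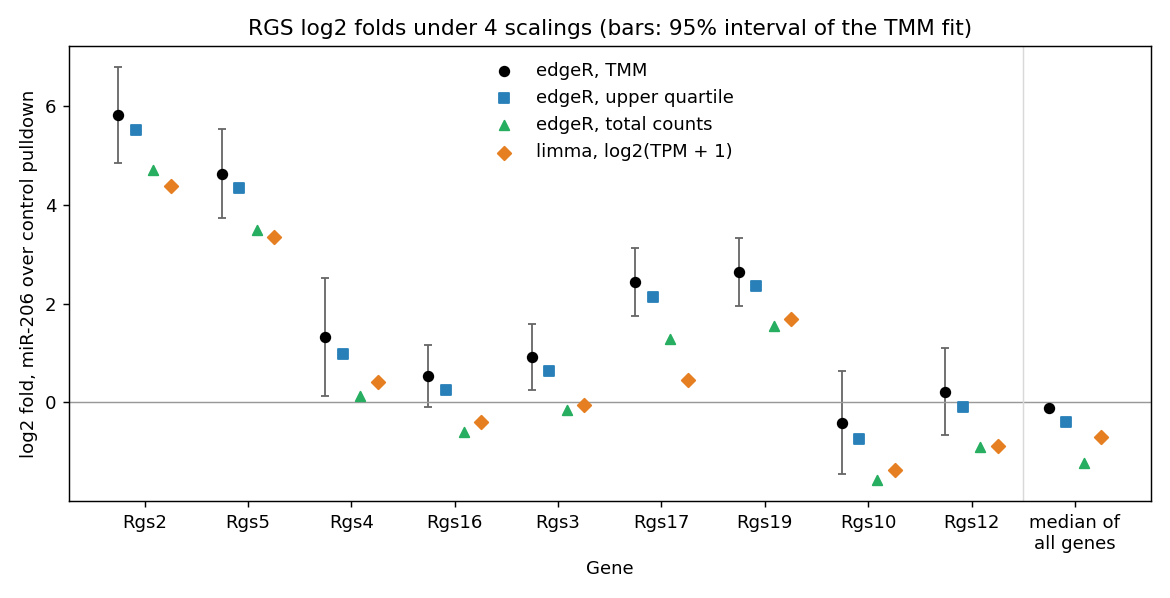
Log2 fold (miR-206 over control pulldown, vertical axis) of the 9 RGS genes and the median of all genes, under 4 scalings marked by symbol; bars are the 95% interval of the TMM fit, which does not cover the choice of scaling. Rgs2, Rgs4, Rgs5, Rgs17 and Rgs19 stay above 0 in all 4 and Rgs10 stays below it, whereas Rgs3, Rgs16 and Rgs12 lie on both sides of it.

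The order of levels within the family, given per length in TPM, is given for each pulldown. In the miR-206 libraries Rgs2 led with 765 and 975 TPM, followed by Rgs19 with 84.4 and 91.8 and Rgs5 with 71.2 and 37.7. Rgs17 (25.2 and 19.0 TPM), Rgs16 and Rgs3 (15.6 and 30.8) overlapped one another there, above Rgs10 (6.36 and 6.45), and Rgs4 (4.83 and 3.32) stood above Rgs12 (2.26 and 3.21). In the control libraries Rgs2 again led, with 39.2 and 41.2 TPM, and Rgs16 (27.3 and 31.1), Rgs19 (21.6 and 32.9), Rgs3 (21.7 and 24.0) and Rgs10 (22.7 and 14.5) came close behind, each overlapping a neighbour. Rgs17 had 16.4 and 15 TPM in that pulldown, within the range of Rgs10, and Rgs12 had 6.03 and 5.69. Rgs5 (3.56 and 4.85 TPM) and Rgs4 (4.49 and 1.58) overlapped below it. Rgs2 alone made up 76.0% and 81.6% of the TPM of the 21 numbered RGS genes in the miR-206 pulldown, against 21.5% and 22.3% in the control libraries. Without it the family summed to 242 and 220 TPM (miR-206) and to 144 and 143 TPM (control). The authors' deposited table, which gives group means and no test, lists log2 folds in TPM of 4.44 for Rgs2, 3.70 for Rgs5, 1.69 for Rgs19, 0.49 for Rgs17 and -1.54 for Rgs10.

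For Rgs17 the log2 fold differed between counts and TPM also after each was set against the median of all genes, at 2.55 in counts and 1.18 in median-centred TPM. Every other tested RGS gene was lower in TPM as well. Examples are Rgs2 (5.93 in counts and 5.11 in TPM), Rgs5 (4.74 and 4.08) and Rgs12 (0.33 and -0.17). Counts per TPM, divided by the same ratio of the library's median gene, rise with the mean effective length of the transcripts that the reads of a gene were assigned to. This ratio was 1.52 and 1.44 for Rgs17 in the miR-206 libraries and 0.839 and 0.688 in those of the control, a shift of 0.96 on the log2 scale. Of 11415 genes with at least 20 counts in every library, 99.2% had a smaller shift, and for 82.7% it lay within 0.2 of 0. Rgs2 had ratios of 1.09 and 1.13 (miR-206) against 0.972 and 0.710 (control), a shift of 0.42, so that its groups did not overlap either, although its control libraries differed more from each other. Rgs12 had 1.14 and 1.25 (miR-206) against 1.21 and 0.678 (control), where 1 control library alone stood apart. For Rgs5, Rgs16, Rgs19 and Rgs3 the shift was between -0.06 and -0.04. Which Rgs17 transcripts lie behind the ratio was not tested, since the table has 1 row for each gene.

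**Figure D3:**
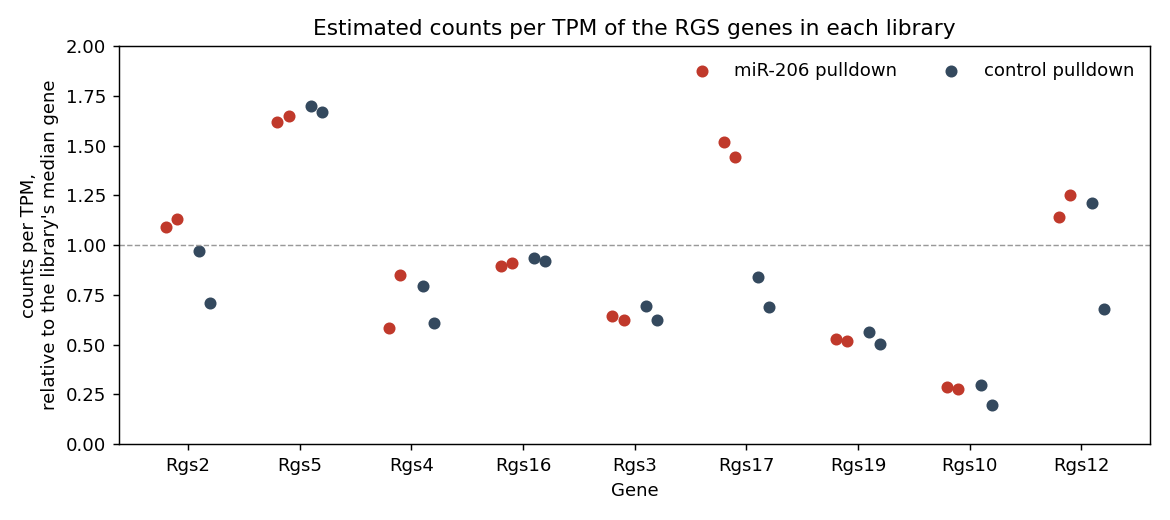
Estimated counts per TPM of each RGS gene, divided by that of the library's median gene (vertical axis, 1 = median gene, dashed), with a point for each library. Rgs17 lies at 1.52 and 1.44 in the miR-206 pulldown and at 0.839 and 0.688 in the control pulldown, while Rgs5, Rgs16, Rgs19 and Rgs3 are close to level.

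Of 26 other tested genes with an RGS domain or for an anchor of RGS proteins, 1 was called higher and 0 lower, where 15.3% and 6.19% of all genes were. Their median log2 fold was -0.19, beside -0.11 for all genes. The called gene was Rgs9bp, which encodes a membrane anchor of RGS9 and related proteins, with 21.6 and 9.33 CPM in the miR-206 pulldown against 1.74 and 1.21 CPM in the control pulldown. Its log2 fold was 3.39 ± 0.53 (edgeR adjusted p = 1.2e-04) and 2.61 without miR-206 replicate 1. Rgs7bp, a similar anchor, had a log2 fold of 1.60 ± 0.60 (adjusted p = 0.0681). Rgs1, Rgs13 and Rgs18, which are known from blood cells, had at most 4 counts in any library.

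Of 13 tested genes for G alpha subunits of all classes, 6 were called higher and 0 lower, beside 15.3% and 6.19% of all genes, with a median log2 fold of 0.97. Gna13, of the G12 class, had 1486 and 599 CPM in the miR-206 pulldown and 34.7 and 25.0 CPM in the control pulldown, a log2 fold of 5.13 ± 0.50 (edgeR adjusted p = 1.6e-06) and of 4.27 without miR-206 replicate 1. Gnao1, the Go alpha subunit and a classic RGS substrate, had 580 and 312 CPM (miR-206) against 27.6 and 23.0 CPM (control), a log2 fold of 4.14 ± 0.40 (adjusted p = 6.0e-07). Gna11, of the Gq class, had 340 and 306 CPM (miR-206) against 70.2 and 128 CPM (control), a log2 fold of 1.70 ± 0.36 (adjusted p = 0.00178) that was not called with total counts (adjusted p = 0.0679) or TPM (0.0638).

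The other called alpha subunits were closer to the threshold. Gnal, a stimulatory subunit, had a log2 fold of 2.02 ± 0.63 (adjusted p = 0.0423), which was 3.53 without control replicate 1 and 1.28 without control replicate 2, and was not called without miR-206 replicate 1 (adjusted p = 0.174). Gnaz had a log2 fold of 1.17 ± 0.41 (adjusted p = 0.0497) and Gna12 of 0.97 ± 0.31 (adjusted p = 0.0342). With the upper quartile the adjusted p was 0.106 for Gnal, 0.174 for Gnaz and 0.0853 for Gna12, and Gna12 reversed to -0.13 with total counts. Gnaz also lost its call without control replicate 2 (0.139) or either miR-206 library (0.202 and 0.296), and Gna12 without control replicate 1 (0.105) or either miR-206 library (0.222 and 0.0507).

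Another 4 alpha subunits with a mean of at least 10 CPM in either group, of the inhibitory, Gq and stimulatory classes, were not called. Gnai2 had 367 and 330 CPM (miR-206) against 184 and 250 CPM (control), with a log2 fold of 0.68 ± 0.33 (adjusted p = 0.162). For Gnai3 the log2 fold was 0.37 ± 0.33 (adjusted p = 0.482), for Gnaq 0.24 ± 0.34 (adjusted p = 0.676) and for Gnas -0.63 ± 0.34 (adjusted p = 0.222). Gnai2 and Gnai3 turned negative with total counts and with TPM and were not called there. Gnaq turned negative and was called lower in both, at -0.84 (adjusted p = 0.0214) with total counts and -1.02 (adjusted p = 0.0165) with TPM. Gnas, already negative, was also called lower in both (adjusted p = 2.9e-04 and 0.00527).

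Among G beta and gamma subunits 3 of 14 were called higher, all of them gamma genes, and 0 lower, beside 15.3% and 6.19% of all genes. Gng12 had 1136 and 789 CPM in the miR-206 pulldown and 94.1 and 138 CPM in the control pulldown, a log2 fold of 3.05 ± 0.39 (edgeR adjusted p = 1.3e-05). Gng2 had a log2 fold of 2.54 ± 0.41 (adjusted p = 4.1e-04), which was 3.36 without control replicate 2 and was not called on the TPM scale (adjusted p = 0.641). Gng11 had 1.47 ± 0.38 (adjusted p = 0.0143) and lost its call with total counts (0.365), with TPM (0.264), and where control replicate 1 (0.0684) or miR-206 replicate 1 (0.167) was left out. The beta subunit gene Gnb1 had a log2 fold of 0.50 ± 0.38 (adjusted p = 0.388).

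Other regulators of G alpha subunits and the arrestins had 2 of 9 called higher and 0 lower, beside 15.3% and 6.19% of all genes. Gpsm3, a GoLoco protein that binds inactive Gi alpha subunits, had 151 and 143 CPM in the miR-206 pulldown and 20.3 and 31.9 CPM in the control pulldown, a log2 fold of 2.49 ± 0.33 (edgeR adjusted p = 1.8e-05). Arrb2, beta-arrestin 2, which uncouples receptors from G proteins, had 3.13 ± 0.65 (adjusted p = 0.00241) on few control counts, 34 and 9. Its log2 fold was 4.67 without control replicate 1 and 2.36 without control replicate 2, and the call was lost with total counts (adjusted p = 0.0565).

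Of 14 effector genes 2 were called higher and 1 lower, close to the 15.3% and 6.19% of all genes. The called genes encode phospholipases C of the beta class, which Gq alpha subunits activate. Plcb1 had 228 and 85.5 CPM in the miR-206 pulldown and 7.45 and 3.46 CPM in the control pulldown, with a log2 fold of 4.85 ± 0.58 (edgeR adjusted p = 2.7e-04). Leaving out miR-206 replicate 1 gave 3.92, and leaving out control replicate 1 gave 5.50. Plcb4 had 121 and 76.5 CPM (miR-206) against 13.5 and 12.2 CPM (control), with a log2 fold of 2.95 ± 0.33 (adjusted p = 2.7e-06). Plcb2 was called lower at -3.42 ± 1.02 (adjusted p = 0.0221) on 2 and 4 counts in the miR-206 pulldown and 46 and 61 counts in the control pulldown. That call was lost with median-centred TPM (0.129) and without control replicate 2 (0.0508), miR-206 replicate 1 (0.186) or miR-206 replicate 2 (0.0919). None of the 10 adenylyl cyclase genes was called.

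Among receptor transcripts 0 of 34 were called higher and 4 lower, beside 15.3% and 6.19% of all genes, with a median log2 fold of -0.16 beside -0.11 for all genes. Ednrb, an endothelin receptor, had 7.26 and 6.07 CPM in the miR-206 pulldown and 29.4 and 30.1 CPM in the control pulldown, a log2 fold of -2.16 ± 0.34 (edgeR adjusted p = 1.3e-04). Lpar4, a lysophosphatidic acid receptor, had -1.47 ± 0.37 (adjusted p = 0.00830), Agtr2, an angiotensin receptor, -1.09 ± 0.35 (adjusted p = 0.0315) and Ptgfr, the prostaglandin F receptor, -1.03 ± 0.33 (adjusted p = 0.0343). Lpar4 was not called without miR-206 replicate 1 (0.148), where its log2 fold was -1.10, and it was -2.08 without miR-206 replicate 2. Agtr2 lost its call without control replicate 2 (0.0605) or either miR-206 library (0.254 and 0.0999), and Ptgfr without control replicate 2 (0.130) or miR-206 replicate 2 (0.327). With median-centred TPM the adjusted p was 0.0506, 0.0840 and 0.0665 for Lpar4, Agtr2 and Ptgfr.

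**Figure D4:**
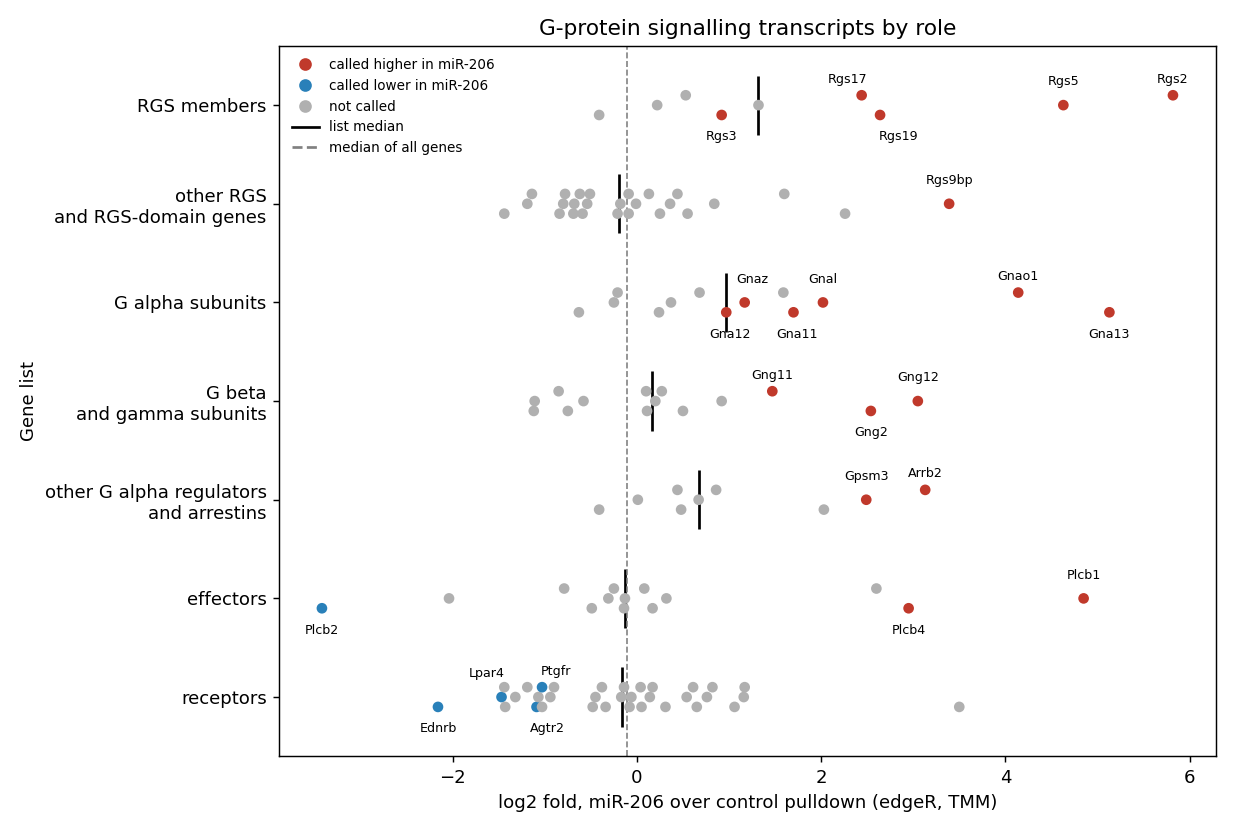
Log2 fold (miR-206 over control pulldown, edgeR with TMM; horizontal axis) of every tested gene in 7 lists ordered by role, coloured by whether it was called; black ticks are list medians and the dashed line is the median of all genes. Called transcripts lie to the right in the RGS, alpha, gamma and regulator lists, on both sides among effectors, and to the left among receptors.

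Over the 6 pathway lists together, 14 of 110 tested genes were called higher and 5 lower, beside 15.3% and 6.19% of all genes. Their median log2 fold was 0.03. Of these 19 calls, 8 held under each of 5 other scalings or units and without each library in turn: Rgs9bp, Gnao1, Gna13, Gng12, Gpsm3, Plcb4, Plcb1 and Ednrb.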

How the data were processed

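RNA bound to a biotin-tagged mimic was sequenced in 4 libraries, 2 per group. The authors deposited estimated counts; the submitters' processing notes name kallisto, FastQC and mm10, with no version or annotation. SMARTer and Nugen kits were used and ERCC spikes were not used for scaling, per the labels' protocols. TPM values are deposited beside them, per the file headers. A second deposited sheet holds the authors' mean TPM per group, its log2 and the log2 fold, without a test. Columns were tied to samples by the barcodes in the titles.

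Counts were rounded and fitted across all genes with edgeR 4.0.16 (glmQLFit, robust, TMM, group only, R 4.3.3) after filterByExpr, which left 15240 genes. P-values were adjusted over those genes by Benjamini-Hochberg, with a threshold of 0.05. "Called" means past it. The SE is the log2 fold divided by the square root of the F statistic, and the 95% interval uses it. Alternatives used other scalings, limma 3.58.1 on log2(TPM + 1) or log2(TPM + 0.1), DESeq2 1.42.0, other filters, a block and left-out libraries. TPM folds with a pseudocount understate low genes. The fit was tested on simulated counts of 15240 genes, with 200 of them changed, as often up as down. It called 93% of those simulated at a log2 fold of 3 in either direction. The simulation held no shift of scale between the groups, so it does not test the choice of scaling.

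The RGS genes, the pathway lists and the markers were chosen with earlier results of these data known. Named are all 10 RGS genes, up to 6 called genes per list and direction with the smallest p, and alpha subunits with a mean of at least 10 CPM in a group. Other genes named (Rgs20, Rgs21, Rgs7bp, Rgs1, Rgs13, Rgs18, Gnb1 and the markers) were picked after their values were seen.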

Additional observations from a re-analysis of the deposited data

How the results depend on the processing

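Rgs2, Rgs5 and Rgs19 kept their direction and call in all 14 alternatives, with log2 folds of 4.39 to 5.97, 3.36 to 5.06 and 1.54 to 2.93. Rgs17 kept its direction (0.46 to 2.70) and lost its call with log2(TPM + 1) and log2(TPM + 0.1), but not with median-centred TPM (1.18, adjusted p = 0.0246). Several pathway calls were lost as well: on log2(TPM + 1) Gng2 stood at 0.30 and Gnal at 0.69, and with median-centred TPM Plcb2 at -0.61. Gnaq was called lower with total counts and on both uncentred TPM scales. The cause of these changes and of those below was not tested. With the upper quartile 1962 genes were lower in all and 10 in the pathway lists, and Rgs12 (-0.09) and Gnaq (-0.04) reversed. With total counts 1070 genes were higher and 6909 lower, 1 RGS gene was lower, 8 pathway genes were higher and 44 lower, and Rgs3 (-0.16), Rgs12 (-0.91), Rgs16 (-0.59), Gna12 (-0.13), Gnai2 (-0.42), Gnai3 (-0.70) and Gnaq (-0.84) reversed. With log2(TPM + 1) the counts were 1089 higher and 5811 lower, 3 and 1 among RGS genes and 8 and 32 in the pathway lists; Rgs3 (-0.05), Rgs12 (-0.89), Rgs16 (-0.39), Gnai2 (-0.34), Gnai3 (-0.51) and Gnaq (-1.02) reversed. With log2(TPM + 0.1) they were 1080 and 5681, 3 and 1, and 8 and 31; the reversed folds were Rgs3 (-0.06), Rgs12 (-1.09), Rgs16 (-0.41), Gnai2 (-0.35), Gnai3 (-0.52) and Gnaq (-1.03). Median-centred TPM left 2 pathway genes lower, with Rgs12 (-0.17) and Gnaq (-0.30) reversed. No count filter gave 9 lower pathway genes. With the replicate block 9 pathway genes were lower and 6 RGS genes higher, Rgs4 added. Over genes, the deviations of same-numbered libraries had r = -0.086. With 2 libraries per group this cannot tell whether same-numbered libraries were paired. Leaving out 1 library at a time gave 456 (without miR-206 replicate 1) to 1567 (without control replicate 1) lower genes and 2 to 11 lower pathway genes. It moved Rgs10 from -0.87 to 0.26, Rgs12 from -0.13 to 0.69 and Gnaq from -0.02 upwards to 0.55, and Rgs4 was called without control replicate 1 (2.46). The lone library of a group is then assumed to vary like the other group. With 3 counts at 0.157 to 0.330 CPM, depth limits what can be said of Rgs14, which had 0 counts. Rgs4, Rgs10 and Rgs12 had 32.6 to 175 counts per library, and the part of depth in their changes was not tested.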
